A study of Rattus norvegicus with 18 samples.

Results

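Proteasome genes were followed in RNA-seq libraries of rat motor cortex taken after spinal cord injury. They are the genes whose symbols begin with Psma, Psmb, Psmc, Psmd or Psme and then a number, which gave 44 of the 31038 genes listed for day 30 and 42 of the 12560 genes listed for day 7. Psma8, the testis form of an alpha subunit, and Psmb6, a catalytic beta subunit, are not among the day 7 genes analysed here. One gene matches the letters without belonging to the proteasome: Psmc3ip encodes a protein of homologous pairing in meiosis, and it is counted with the members but belongs to no role. The other 43 are 8 genes of the 20S alpha ring, 4 structural and 3 catalytic genes of the 20S beta ring, 4 catalytic genes of the immunoproteasome and thymoproteasome, 6 ATPases and 11 further subunits of the 19S cap, 3 chaperones that assist assembly of the 19S cap, and 4 genes of other activator caps.

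Each of the 6 groups holds 3 of the 18 libraries. They are inj and Sham of males at day 7, and In and S of males and of females at day 30. The series describes the material as neurons enriched from motor cortex, the labels name the tissue only, and neither gives strain or age in the sources used here. The day 30 names In and S stay as the labels give them, without being spelled out. Whether the libraries of a group come from separate animals is not stated, so p-values measure the spread among libraries, which may be technical, and Sham 1 and Sham 1-RNA may or may not be 1 sample.

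The proteasome is the cell's main machine for breaking down proteins tagged with ubiquitin. Its 20S core is a barrel of alpha and beta rings with the cutting sites inside, and the 19S cap binds ubiquitin chains, unfolds the protein and feeds it into the barrel. Interferon replaces the catalytic subunits Psmb5, Psmb6 and Psmb7 by Psmb8, Psmb9 and Psmb10, and the resulting immunoproteasome is known for making peptides for class I antigen presentation. In brain the immunoproteasome is known mainly from microglia and other immune cells, while neurons carry mostly the standard form.

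Totals ran from 14650528 to 17013273 counts in inj and from 2683105 to 3014083 in Sham, so a day 7 value rests on far fewer reads in Sham. At day 30 they ran from 14532252 to 27849794. Mitochondrially encoded genes took 27.1 to 37.5% of the counts in female In, 53.7 to 60.3% in male In, 31.3 to 33.2% in female S and 54.2 to 60.3% in male S, while the day 7 table holds none. RNA of other cells than neurons was present in all libraries: of 16 microglial, 12 endothelial, 10 pericyte, 10 astrocyte and 10 oligodendrocyte markers none was at 0 in any library, and of 12 pan-neuronal markers at most 1 was. In tissue RNA, fewer cells of a type and less RNA per cell cannot be told apart. Levels are given as CPM, which are counts after scaling every library to the same size by TMM, and are compared within a day, never between genes, because no transcript lengths were used.

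At day 7, 1 gene stood out among the proteasome genes. Psmd1, which encodes the largest scaffold subunit of the 19S base, was 3.33-fold lower in inj than in Sham. Psmb8, the interferon-inducible catalytic subunit, rose, and 5 further genes of different roles fell by smaller amounts. With edgeR's quasi-likelihood test and Benjamini-Hochberg adjustment over all 11786 genes tested, 1 of 42 members rose and 6 fell at an adjusted p under 0.05. Of all genes tested 19.3% rose and 15.4% fell (34.7% in all), so the share of members that fell lay near that of all genes and is no result about the members. The median log2 fold change was -0.15 over the members and -0.0020 over all genes tested, and 31 of 42 members against 50.1% of all genes were lower in inj. Taking library totals as the scale moved the median of all genes to 0.28, and 4 members then rose and 2 fell.

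Psmd1 had 129, 136 and 137 CPM in the inj libraries 2, 3 and 4, against 397, 567 and 374 CPM in Sham 1, 1-RNA and 3. All 3 inj libraries lay within a narrow band far below the Sham libraries, and Sham 1-RNA was the highest. The means were 134 ± 4.54 CPM in inj and 446 ± 106 CPM in Sham (SD, n = 3 each), a log2 fold change of -1.74 ± 0.18 (SE, adjusted p = 9.13e-05 by edgeR). The call stood in all 14 alternatives, with values between -1.84 and -1.48 and an adjusted p of at most 0.00105, and it was -1.71 with the inj reads thinned to the Sham depth.

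Among the other 10 non-ATPase subunits of the 19S cap only Psmd11 passed, at -0.41. Psmd2, the partner scaffold of the same base, had 170.1, 181 and 164 CPM in inj and 159, 186 and 175 CPM in Sham, with overlapping groups and an interval of the log2 difference of -0.27 to 0.24 (95%). The ratio of Psmd1 to Psmd2 counts within a library is independent of the scaling, and it was 0.757, 0.753 and 0.837 in inj and 2.51, 3.05 and 2.13 in Sham. The 12 day 30 libraries, which were counted in a separate table, held ratios between 0.521 and 0.725. By this ratio the 3 Sham libraries of day 7 lay above the other 15. Ratios of genes can shift between the tables, however. Psmb10 counts per 100 Psmb7 counts were 15.9 to 33.9 at day 7 and 45.6 to 140 at day 30. The day 30 ratios therefore cannot show which of the day 7 groups was unusual. RefSeq lists 1 pseudogene or like copy of Psmd1 and an overlapping gene, Htr2b, which had 0 reads over the 12 day 30 libraries and is not among the day 7 genes; the sources used here do not say whether strand was used in counting.

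Oligodendrocyte markers differed between the Sham libraries in another order than Psmd1 did. Their summed level was 64912, 61109 and 77257 CPM in inj, against 208256, 70967 and 193361 CPM in Sham 1, 1-RNA and 3. Sham 1-RNA lay within the inj range for these markers and had the highest Psmd1 level. Pan-neuronal markers summed to between 3745 and 5465 CPM in inj and to between 5213 and 5536 CPM in Sham. Other lists, given below, did set each inj library apart from each Sham library, as Psmd1 did, but as higher in inj. They were the microglial sums and the endothelial and pericyte markers. The part of any of these lists in the Psmd1 difference was not tested.

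**Figure D1:**
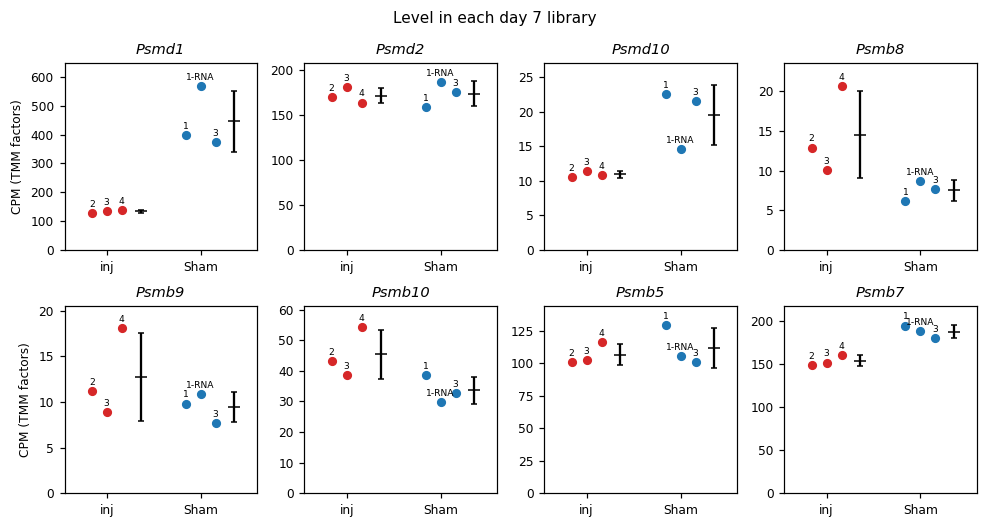
Level of 8 proteasome genes in each day 7 library, in CPM with TMM factors on a linear axis from 0, for inj (red) and Sham (blue) libraries named by number; the black bar is the mean ± SD of 3 libraries. Psmd1 sits between 129 and 137 CPM in inj and between 374 and 567 CPM in Sham, Psmd2 overlaps between the groups, and Psmb8 is higher in each inj library than in each Sham library.

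The start of the Psmd1 gene is shown because its counts changed most, beside those of Psmb8 and Psmb9, the inducible catalytic subunits that lie near each other on chromosome 20. The sequences are from RefSeq on build GRCr8, not the rn6 build to which the reads were aligned, and run from 250 bases before to 50 bases after the annotated start. They are Psmd1 at chr9:94157721-94158020 (plus strand), Psmb8 at chr20:4656982-4657281 (minus strand) and Psmb9 at chr20:4668750-4669049 (plus strand). Capitals mark antioxidant response element letters (TGACNNNGC) in Psmd1, gamma-activated site (TTCNNNGAA) and interferon-stimulated response element (GAAANNGAAA) letters in Psmb8, and in Psmb9 the 44 bases that its window shares with that of Tap1, the peptide transporter gene that starts 457 bases away.
Psmd1: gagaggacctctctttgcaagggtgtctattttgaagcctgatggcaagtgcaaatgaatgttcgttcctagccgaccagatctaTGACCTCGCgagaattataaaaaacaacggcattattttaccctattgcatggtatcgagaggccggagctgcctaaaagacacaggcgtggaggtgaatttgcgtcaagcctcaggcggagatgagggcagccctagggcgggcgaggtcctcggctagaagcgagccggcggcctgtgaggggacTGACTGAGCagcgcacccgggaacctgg
Psmb8: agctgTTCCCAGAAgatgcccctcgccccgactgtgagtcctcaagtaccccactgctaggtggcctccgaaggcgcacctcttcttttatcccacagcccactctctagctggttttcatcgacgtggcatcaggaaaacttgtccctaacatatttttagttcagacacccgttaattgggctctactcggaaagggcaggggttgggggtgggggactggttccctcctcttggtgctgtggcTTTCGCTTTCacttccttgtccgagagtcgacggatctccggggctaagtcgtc
Psmb9: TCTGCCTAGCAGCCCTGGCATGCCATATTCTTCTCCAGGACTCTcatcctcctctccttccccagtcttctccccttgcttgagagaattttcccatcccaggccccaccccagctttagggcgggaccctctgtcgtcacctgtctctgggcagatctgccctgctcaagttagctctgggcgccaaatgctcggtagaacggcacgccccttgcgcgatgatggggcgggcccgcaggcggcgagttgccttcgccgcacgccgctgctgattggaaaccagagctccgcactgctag

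Motifs were searched on both strands in the 39 member windows that RefSeq held and in all 33469 windows. The interferon-stimulated letters occurred in 6 member windows (Psma4, Psmb3, Psmb8, Psmb10, Psmd7 and Psme2) and in 3.92% of all windows. Gamma-activated letters occurred in 4 (Psmb8, Psmc6, Psmd3 and Psmd7) and in 8.87% of all, and antioxidant letters in 8 (among them Psmb5, Psmb6 and Psmd1) and in 12.1% of all. The window of Psmb9 held none of these letters. No matches of different motifs overlapped. A match of letters describes the window and is not evidence of binding.

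Of the standard and inducible catalytic subunits, Psmb8 was the 1 that passed at day 7. Psmb8 had 12.9, 10.03 and 20.7 CPM in inj, against 6.15, 8.73 and 7.69 CPM in Sham, from 208, 188 and 388 reads and 15, 24 and 20 reads. Each inj library was above each Sham library, with inj 4 highest. Psmb8 rose by 0.95 ± 0.32 on the log2 scale (SE, adjusted p = 0.0447 by edgeR), close to the threshold. It kept the call in 6 of 14 alternatives, with the sign unchanged in all: the edgeR call ended without Sham 1 (0.84, adjusted p = 0.14), Sham 3 (0.97, 0.11), Sham 1-RNA (1.06, 0.0539), inj 2 (1.02, 0.0642) or inj 4 (0.59, 0.104), and held at 0.88 with inj reads thinned to the Sham depth (0.0179).

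Psmb10, the inducible counterpart of Psmb7, had 43.1, 38.6 and 54.4 CPM in inj and 38.5, 29.8 and 32.7 CPM in Sham. The groups did not overlap but inj 3 and Sham 1 were nearly level, and the log2 difference of 0.43 ± 0.18 (SE) did not pass (adjusted p = 0.0841 by edgeR). Psmb9, the counterpart of Psmb6, had 11.2, 8.91 and 18.1 CPM in inj and 9.83, 10.9 and 7.69 CPM in Sham; only inj 2 and inj 4 lay above the Sham range, and the interval of its log2 difference was -0.18 to 1.03. Psmb11, the thymoproteasome subunit, had 15, 15 and 34 reads in inj and 1, 6 and 5 reads in Sham, too few for its level to be compared.

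Among the standard catalytic genes, Psmb5 had 101, 103 and 116 CPM in inj and 129, 105 and 101 CPM in Sham, and the groups overlapped. Psmb7 had 149, 151 and 160.3 CPM in inj and 194, 188 and 179 CPM in Sham. All inj libraries were lower for Psmb7, but its log2 difference of -0.29 ± 0.12 (SE) did not pass (adjusted p = 0.102 by edgeR). Within a library, Psmb8 counts per 100 Psmb5 counts were 12.7, 9.79 and 17.8 in inj and 4.75, 8.28 and 7.605 in Sham. Psmb10 counts per 100 Psmb7 counts were 29.01, 25.5 and 33.9 in inj and 19.8, 15.9 and 18.2 in Sham. Both ratios were higher in each inj library than in each Sham library, whatever the scaling.

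No activator cap passed at day 7. Psme1 and Psme2 encode the PA28 ring that opens the barrel without ubiquitin. Psme1 had 87.6, 78.8 and 106 CPM in inj and 94.7, 88.4 and 71.2 CPM in Sham, and Psme2 had 35.2, 32.1 and 41.6 CPM in inj and 39.3, 26.5 and 33.9 CPM in Sham. The groups overlapped for both genes, and the log2 intervals were -0.22 to 0.42 for Psme1 and -0.22 to 0.48 for Psme2. Psme3, the nuclear PA28 ring, and Psme4, the PA200 cap, also overlapped.

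**Figure D2:**
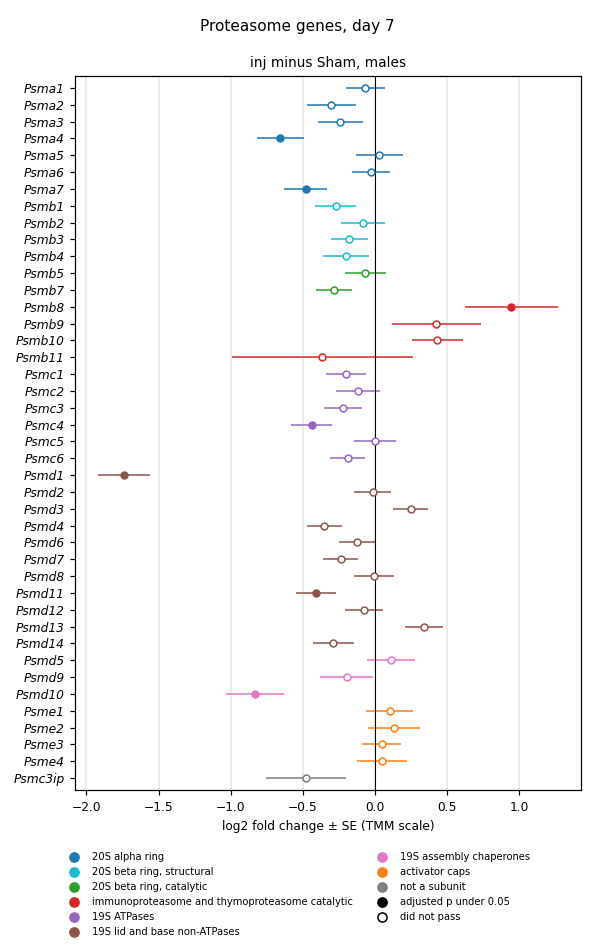
Log2 fold change, inj minus Sham, with its SE, for the 42 proteasome genes tested at day 7, coloured by role; filled points passed an adjusted p under 0.05 by edgeR over all genes. Psmd1 lies at -1.74, apart from the other genes, Psmb8 at 0.95, and the median is -0.15.

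Of 17 tested genes that supply peptides to class I molecules or act in interferon signalling, 12 rose and 0 fell in inj, against 19.3% and 15.4% of all genes tested. Their median log2 fold change was 1.06, and the list was put together with earlier results of these data known. The other 5, Calr, Canx, Jak1, Jak2 and Tap2, did not pass, and Jak2 was on the lower side at -0.11. Tap1 rose by 2.46 ± 0.25 (SE, adjusted p = 8.15e-05 by edgeR), with 17.3, 14.7 and 19.1 CPM in inj and 3.69, 2.91 and 2.69 CPM in Sham. The class I genes RT1-A1 and RT1-A2 rose by 2.08 and 2.07, and Ifngr1, a chain of the interferon gamma receptor, by 2.67. The transcription factor Irf1 rose by 1.45 ± 0.22 (SE), with 15.96, 18.5 and 21.5 CPM in inj and 5.74, 6.91 and 7.69 CPM in Sham.

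Most microglial markers were also higher in inj. Of 16 tested, 15 rose, and their summed level was 4004, 3820 and 4064 CPM in inj, against 763, 882 and 972 CPM in Sham 1, 1-RNA and 3. All 12 endothelial and all 10 pericyte markers rose as well. Of 10 astrocyte markers 3 rose and 3 fell, of 10 oligodendrocyte markers 1 rose and 4 fell, and of 12 pan-neuronal markers 2 rose and 2 fell. Of 2 blood cell and 6 choroid plexus markers 0 passed. The part of these lists in the Psmb8 difference was not tested.

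The 5 other members that fell belong to 4 roles. Psmd10, a chaperone of 19S base assembly also known as gankyrin, had 10.6, 11.5 and 10.8 CPM in inj and 22.5, 14.5 and 21.5 CPM in Sham. Its groups did not overlap although Sham 1-RNA lay well below the other Sham libraries, and the log2 difference was -0.83 ± 0.20 (SE, adjusted p = 0.00990 by edgeR). It passed in 13 of 14 alternatives, the exception being the fit without Sham 1 (-0.70, adjusted p = 0.0504).

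Psma4, an alpha ring subunit, had 78.3, 82.8 and 94.3 CPM in inj and 146, 151 and 106 CPM in Sham, a log2 difference of -0.66 ± 0.16 (SE, adjusted p = 0.0108 by edgeR). Psma7, of the same ring, had 115, 121 and 148 CPM in inj and 197, 159 and 182 CPM in Sham, a difference of -0.48 ± 0.15 (adjusted p = 0.0329). In both genes each inj library was below each Sham library. Psmc4, an ATPase of the 19S base, had 68.1, 64.2 and 73.98 CPM in inj and 107, 93.8 and 79.6 CPM in Sham, a difference of -0.44 ± 0.14 (adjusted p = 0.0393 by edgeR). Psmd11, a lid subunit, had 56.8, 57.8 and 58.9 CPM in inj and 68.4, 88.01 and 73.9 CPM in Sham, a difference of -0.41 ± 0.14 (adjusted p = 0.0414). These groups did not overlap either, which adds no support for genes picked as passing. The calls were less stable: Psma4 passed in 12 of 14 alternatives, Psmc4 in 10, Psma7 in 8 and Psmd11 in 6. By edgeR, Psma4 lost its call without inj 2 (-0.61, adjusted p = 0.0507). Psma7 lost it without Sham 1 (-0.39, 0.125), Sham 3 (-0.46, 0.103), inj 2 (-0.42, 0.138) or inj 3 (-0.45, 0.10). Psmc4 lost it without Sham 1 (-0.32, 0.162), inj 2 (-0.44, 0.114) or inj 3 (-0.40, 0.115), and Psmd11 without Sham 1-RNA (-0.31, 0.0738), Sham 3 (-0.42, 0.0902), inj 2 (-0.40, 0.129), inj 3 (-0.41, 0.0959) or inj 4 (-0.43, 0.0696).

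By role, the medians at day 7 were -0.24 for 7 alpha ring genes, -0.19 for 4 structural beta genes, -0.20 for 6 ATPases, -0.12 for 11 further 19S subunits and 0.074 for 4 activator caps, against 0.43 for the 4 immunoproteasome and thymoproteasome genes. Within the 19S cap 2 members stood at the other end from Psmd1 without passing: Psmd13 at 0.34 ± 0.13 and Psmd3 at 0.25 ± 0.12 (SE). The assembly chaperones Psmd10, Psmd9 and Psmd5 stood at -0.83, -0.20 and 0.11, and the standard catalytic genes Psmb5 and Psmb7 at -0.069 and -0.29. Psmc3ip did not pass, with a difference of -0.48 ± 0.28.

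Outside the subunits, the list of assembly factors and regulators had 15 tested genes at day 7, of which 0 rose and 1 fell by edgeR (2 at an unadjusted p under 0.05), with a median of -0.21. The gene that fell was Uchl5, a deubiquitinase that docks on the 19S cap (-0.57 ± 0.16, SE, adjusted p = 0.0184). Pomp, the maturation factor of the 20S core, had 6.77, 7.95 and 9.55 CPM in inj and 14.3, 12.7 and 10.8 CPM in Sham. Its groups did not overlap, and its difference of -0.64 ± 0.22 (SE) just missed the threshold (adjusted p = 0.0511 by edgeR). Of 21 genes of ubiquitin supply and delivery 1 rose and 3 fell. The delivery factor Bag6 rose by 0.55 ± 0.13 (SE, adjusted p = 0.00858 by edgeR), while the ubiquitin ligase Ube3a (-0.89), the conjugating enzyme Ube2d1 (-0.62) and the shuttle factor Ubqln1 (-0.44) fell. Ubb, a polyubiquitin gene, did not pass (interval -0.032 to 0.57). On library totals 1 of the assembly factors and regulators rose and 0 fell, and 4 of the ubiquitin genes rose and 1 fell.

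At day 30 no proteasome gene passed between In and S in either sex, and few genes of any kind did. In males 0 of 43 members tested and 0% of 15074 genes passed by edgeR. The members were also at 0 by DESeq2 and by limma-voom, and 2 of 43 were under an unadjusted p of 0.05 against 8.17% of all genes. The median was 0.047 over the members and 0.018 over all genes. In females 0 members and 0.0332% of all genes passed by edgeR, with 0 members by DESeq2 and limma-voom, and 0 of 43 members were under an unadjusted p of 0.05 against 1.73% of all genes. The members' median was -0.00073 and that of all genes -0.0015. Psma8 had 6 reads in female S 2, 7 in male In 1, 3 in male S 1 and 0 elsewhere, and was not tested.

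The members with the smallest p in males were Psmb9, Psmb2 and Psmb8. Psmb9 had 16.6, 12.5 and 11.6 CPM in male In and 11.5, 7.88 and 7.14 CPM in male S, and the lowest male In library was just above the highest male S library. Its difference of 0.61 ± 0.24 (SE, adjusted p = 0.599 by edgeR) did not pass. Psmb2, a structural beta subunit, had 34.6, 25.3 and 30.00 CPM in male In and 25.5, 16.9 and 23.6 CPM in male S, with overlap between male In 2 and male S 1. Psmb8 had 11.97, 8.36 and 6.82 CPM in male In and 7.296, 2.69 and 6.57 CPM in male S, also with overlap, and a difference of 0.69 ± 0.33 (SE). Psmb10 had 82.3, 39.7 and 33.5 CPM in male In and 37.3, 34.03 and 37.8 CPM in male S, where male In 1 alone stood out.

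In females the smallest p belonged to Psmb8, Psmb11 and Psmd4. Psmb8 had 5.76, 6.93 and 6.44 CPM in female In and 4.94, 3.62 and 4.36 CPM in female S. Each female In library lay above each female S library, but the difference of 0.57 ± 0.32 (SE, unadjusted p = 0.0968, edgeR) did not pass. Psmd4, the ubiquitin receptor of the 19S cap, had 53.6, 47.2 and 45.7 CPM in female In and 54.9, 55.4 and 56.9 CPM in female S, again without overlap and without passing (-0.19 ± 0.18, SE). Psmb11 lay at or under 1.08 CPM in every female library. Psmb9, which led in males, had 6.11, 7.37 and 8.11 CPM in female In and 7.96, 6.61 and 6.97 CPM in female S, with an interval of -0.45 to 0.46. Psmb10 had 23.2, 16.4 and 19.6 CPM in female In and 21.6, 17.8 and 20.1 CPM in female S, and these overlapped.

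Ratios within a library do not depend on the scaling. Psmb8 counts per 100 Psmb5 counts were 11.6, 12.9 and 10.1 in male In and 9.87, 4.502 and 9.26 in male S, with each male In library above each male S library. In females they were 9.43, 15.5 and 11.5 in female In and 10.6, 6.96 and 8.48 in female S, where the groups overlapped. Psmb9 counts per 100 Psmb6 counts were 24.1, 30.4 and 29.9 in male In and 24.9, 14.7 and 14.5 in male S, and 14.6, 21.2 and 24.02 in female In and 25.9, 18.6 and 19.9 in female S, with overlap in both sexes.

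The remaining catalytic and cap genes overlapped between In and S. In males the log2 intervals were -0.16 to 0.56 for Psmb5, -0.38 to 0.38 for Psmb6 and -0.17 to 0.64 for Psmb7. In females they were -0.25 to 0.47 for Psmb5, -0.25 to 0.50 for Psmb6 and -0.43 to 0.37 for Psmb7. Psme1 had 111, 61.8 and 67.4 CPM in male In and 70.4, 42.5 and 56.8 CPM in male S, and 49.6, 35.1 and 47.5 CPM in female In and 42.4, 40.4 and 55.7 CPM in female S. Psme2 had 22.3, 6.63 and 5.27 CPM in male In and 10.8, 9.32 and 8.19 CPM in male S, the first male In library being more than 2-fold above any other male library, and 9.97, 9.31 and 7.42 CPM in female In and 12.3, 5.99 and 11.6 CPM in female S. Of the regulators, Irf1 did not pass in either sex, nor did Ubb or Nfe2l1, the factor that raises transcription of proteasome genes. Pomp had at most 2 reads in any day 30 library and was not tested between In and S. Nfe2l1 had 103, 180.1 and 192 CPM in male In and 171, 268 and 234 CPM in male S, with male In 1 far below the rest.

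Male In 1 carried much of what differed among the male libraries. Of the 6 male libraries it had the highest level for 22 of 44 members. These included all 4 structural and all 3 standard catalytic beta genes, 3 of the 4 immunoproteasome and thymoproteasome genes and 3 of the 4 activator caps, but 0 of the 6 ATPases. The share of all genes for which male In 1 was highest was not determined, so the count is no result about the members. Over all genes male In 1 differed more from male In 2 and male In 3 than these did from each other. The same library had an Mbp share of 0.551% of counts. Without it the In minus S difference of Psmb10 was 0.0099, against 0.51 with it, and without male In 1 and male S 2 it was -0.036. Psmb8 then stood at 0.13 and Psmb9 at 0.36. Microglial markers summed to between 2113 and 3053 CPM in male In and to between 1434 and 2250 CPM in male S, and to between 1718 and 2605 CPM in female In and 1938 and 2589 CPM in female S. All 16 were higher in male In and lower in female In without any passing. All 10 oligodendrocyte markers stood the other way, lower in male In and higher in female In, also without any passing. Of 7 choroid plexus markers 3 rose in female In and 0 passed in male In. The part of these lists in the values of Psmb8, Psmb9 and Psmb10 was not tested.

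**Figure D3:**
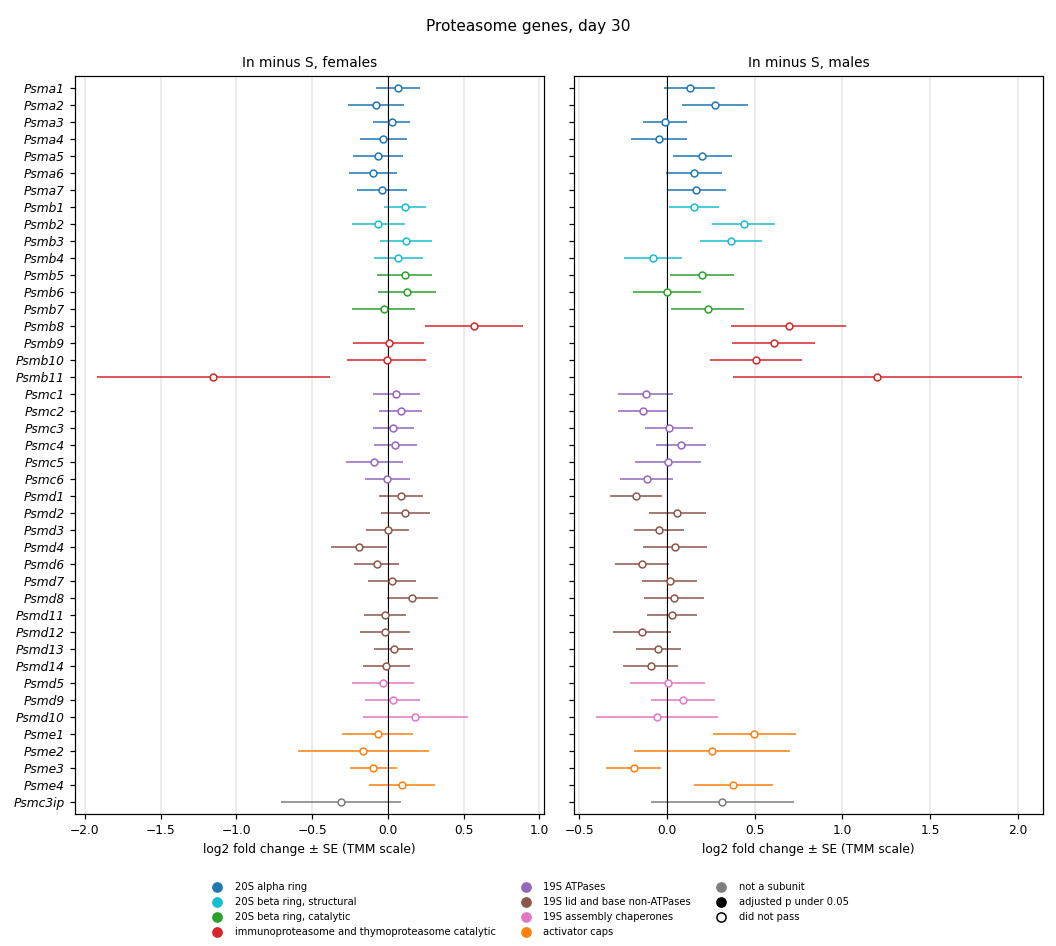
Log2 fold change, In minus S, with its SE, for the 43 proteasome genes tested at day 30, in females (left) and males (right), coloured by role. All points are open because 0 of these genes passed an adjusted p under 0.05; Psmb8 lies at 0.57 in females and 0.69 in males, and most other genes lie near 0 except Psmb11, which rests on few reads.

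Whether the In minus S difference itself differed between females and males was tested as an interaction. By edgeR 0 of 43 members and 0% of all genes passed, 0 members were under an unadjusted p of 0.05 against 4.11% of all genes, and DESeq2 and limma-voom also gave 0 members. The smallest p belonged to Psmb11 (-2.35 ± 1.13), Psmb2 (-0.50 ± 0.25) and Psmb9 (-0.60 ± 0.33, each a log2 difference with its SE). For Psmb8 the interaction was -0.13 ± 0.46 (SE), with an interval of -1.02 to 0.77.

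Female and male libraries differed in proteasome genes at day 30, within In more than within S by count. No female library overlapped a male one in mitochondrial share, or in TMM factor (1.19 to 1.52 against 0.676 to 0.842). Sex thus cannot be told apart from any other difference between these sets of libraries. In the In libraries, 10 of 43 members fell in females relative to males and 0 rose by edgeR, against 6.59% of all genes that fell and 6.1% that rose (12.7% in all). The members' median was -0.33 and that of all genes 0.028. In the S libraries 1 of 43 fell and 0 rose, against 1.27% and 1.7% of all genes (2.97% in all), with medians of -0.24 and 0.031. Since the interaction above is also the test of whether the sex difference changed between S and In, and gave 0 members, the larger count in In is not shown to be a larger difference.

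These directions depend on the scaling. With library totals as the scale the median of all genes moved to 0.94 in In and 0.88 in S, and then 25 members in In and 27 in S were higher in females with 0 lower. Relative to all genes the members were lower in females on every scale run: their median lay between -0.47 and -0.25 from that of all genes in In over 22 alternatives, and between -0.32 and -0.21 in S. The share of mitochondrially encoded reads differed between the sexes as given above. A fit without mitochondrially encoded genes, on the remaining totals, gave members passing in both directions in In and 0 in S. The part of the mitochondrial share in these differences was not otherwise tested.

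Psmb10 had the largest difference among the members that passed in In. It had 23.2, 16.4 and 19.6 CPM in female In and 82.3, 39.7 and 33.5 CPM in male In, so that each female library was below each male one. The log2 difference was -1.39 ± 0.26 (SE, adjusted p = 0.00483 by edgeR). It passed in 21 of 22 alternatives, was -0.89 without male In 1, and was -0.50 without passing on library totals (adjusted p = 0.112). In S it had 21.6, 17.8 and 20.1 CPM in females and 37.3, 34.03 and 37.8 CPM in males, again without overlap, and did not pass (-0.88 ± 0.26, SE, adjusted p = 0.0827 by edgeR). Psmb10 counts per 100 Psmb7 counts, which no scaling affects, were 58.4, 50.5 and 60.5 in female In and 140.1, 109 and 76.5 in male In. In S they were 69.8, 45.6 and 54.9 in females and 106, 65.4 and 121 in males, where female S 1 lay above male S 2.

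The other members that fell in the In females on the TMM scale were of several roles, and each of these 9 was higher in females on library totals. Psmb9 had 6.11, 7.37 and 8.11 CPM in female In and 16.6, 12.5 and 11.6 CPM in male In (-0.91 ± 0.23, SE, adjusted p = 0.0193 by edgeR). Psme1 had 49.6, 35.1 and 47.5 CPM in female In and 111, 61.8 and 67.4 CPM in male In (-0.86 ± 0.24, adjusted p = 0.0277 by edgeR). Psmc5, a 19S ATPase, had 179.9, 149.6 and 158 CPM in female In and 340.2, 256 and 247 CPM in male In (-0.79 ± 0.19, adjusted p = 0.0142 by edgeR). In each, no female library reached the lowest male one, which adds no support for genes picked as passing. Psmc5 passed in 18 of 22 alternatives, and Psmb9 and Psme1 in 15.

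The alpha subunit Psma7 had 54.5, 44.5 and 46.6 CPM in female In and 98.8, 65.2 and 68.5 CPM in male In (-0.67 ± 0.17, SE). The structural beta genes Psmb1, Psmb3 and Psmb4 differed by -0.52, -0.57 and -0.62, the ubiquitin receptor Psmd4 by -0.66, and the assembly chaperone Psmd9 by -0.60, all log2. Psmb1 had 81.5, 78.5 and 78.7 CPM in female In and 135, 102 and 104 CPM in male In, and Psmb3 had 38.98, 36.99 and 37.01 CPM in female In and 71.4, 43.3 and 53.2 CPM in male In. Psmb4 had 76.9, 64.4 and 63.03 CPM in female In and 128, 92.4 and 93.4 CPM in male In. None of these 6 genes overlapped between the sexes in In, but they were picked as passing this same comparison, so that adds no support. The share of all genes without overlap was not determined. Psmd4 had 53.6, 47.2 and 45.7 CPM in female In and 99.1, 58.2 and 74.3 CPM in male In, and Psmd9 had 11.3, 13.6 and 11.3 CPM in female In and 21.00, 14.3 and 19.6 CPM in male In. Male In 1 was the highest library for each.

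The calls in In rested on few libraries. By edgeR, 2 of the 10 members were left without male In 1 (Psmb10 and Psmc5), 2 without female In 3 (Psmb10 and Psmb9) and 1 without female In 2 (Psmb10), and 1 in a fit to the In libraries alone. Without male In 1, Psma7 stood at -0.46 (adjusted p = 0.0522), Psmb1 at -0.38 (0.076), Psmb3 at -0.36 (0.168), Psmb4 at -0.45 (0.0681), Psmb9 at -0.75 (0.0702), Psmd4 at -0.44 (0.0991), Psmd9 at -0.49 (0.131) and Psme1 at -0.55 (0.0991). Without female In 3 the 8 members that lost their call stood between -0.92 and -0.51 (adjusted p from 0.0594 to 0.137 by edgeR), and without female In 2 the 9 that did stood between -0.93 and -0.51 (0.0744 to 0.14). Psmb9 also lost its call without female In 1 (-0.82, adjusted p = 0.0549 by edgeR), as did Psmb3 (-0.61, 0.0624) and Psmd9 (-0.57, 0.0912). Psmb3 and Psmd9 lost it likewise, with values between -0.60 and -0.54, without any 1 female S library, male In 3 or male S 4, and Psmd9 without male S 1 (-0.60, 0.0517).

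In S the single member that passed was Psmb4, with 61.7, 61.03 and 71.9 CPM in female S and 97.2, 124 and 110.3 CPM in male S. The groups were well apart, and the log2 difference was -0.77 ± 0.16 (SE, adjusted p = 0.0216 by edgeR) on the TMM scale and 0.10 on library totals. It passed in 15 of 22 alternatives, and by edgeR not without female S 1 (-0.73, adjusted p = 0.128), female S 2 (-0.72, 0.0927), male S 2 (-0.67, 0.0826) or male S 4 (-0.76, 0.0929). Psmc5 came next with 154, 178 and 188 CPM in female S and 208, 342 and 291 CPM in male S, also without overlap (-0.69 ± 0.19, SE, adjusted p = 0.0581 by edgeR).

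Not all proteasome genes were lower in females. In In, Psmd1 had 54.1, 57.9 and 58.2 CPM in female In and 45.1, 47.2 and 37.00 CPM in male In, a difference of 0.40 ± 0.15 (SE, adjusted p = 0.0867 by edgeR) that did not pass. By role, the median in In was -1.12 for the 4 immunoproteasome and thymoproteasome genes. This includes Psmb11 (-1.32 ± 0.79, SE), which had only 4 to 19 reads in the In libraries. The medians were -0.54 for the 4 structural beta genes, -0.43 for the 3 standard catalytic genes and -0.25 for 7 alpha genes. They were -0.15 for 6 ATPases and 0.067 for 11 further 19S subunits. The assembly chaperones Psmd10, Psmd9 and Psmd5 stood at -0.63, -0.60 and -0.068. The activator caps Psme1, Psme2, Psme3 and Psme4 stood at -0.86, -0.35, -0.29 and -0.069. Standard catalytic genes did not pass: Psmb5 had 61.1, 44.8 and 55.9 CPM in female In and 103, 64.9 and 67.3 CPM in male In, and Psmb6 had 41.9, 34.8 and 33.8 CPM in female In and 68.98, 41.3 and 38.9 CPM in male In. Psmb7 had 39.7, 32.5 and 32.3 CPM in female In and 58.7, 36.5 and 43.7 CPM in male In. Psmb5 did not overlap between the sexes, while Psmb6 and Psmb7 did. Psmb8 overlapped too, with a difference of -0.50 ± 0.32 (SE).

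Of the genes around the proteasome, 2 of 17 assembly and regulation genes fell and 0 rose in the In females on the TMM scale: Shfm1, a small 19S subunit outside the naming pattern (-0.97 ± 0.24, SE, adjusted p = 0.0174 by edgeR), and Psmg1, a chaperone of alpha ring assembly (-0.75 ± 0.19). Of 20 genes of ubiquitin supply and delivery 0 fell and 1 rose, the activating enzyme Uba6 (0.85 ± 0.24). Male In 1 was the highest male library for Shfm1 and Psmg1. Of 17 class I and interferon genes 2 rose, Jak1 and Erap1, and 0 fell, with a median of 0.25. Tap1 did not pass (-0.030 ± 0.26, SE). On library totals 11 of the 17 assembly and regulation genes, 18 of the 20 ubiquitin genes and 14 of the 17 class I and interferon genes rose, and 0 fell.

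Markers of several cell types also differed between the sexes in In on the TMM scale. Of 12 endothelial markers 5 rose and 0 fell in females, with sums from 1535 to 2097 CPM in female In and from 1335 to 1549 CPM in male In. Of 10 pericyte markers 4 rose and 0 fell, with sums from 662 to 1077 CPM in female In and from 554 to 1023 CPM in male In. Of 7 choroid plexus markers 5 rose and 0 fell, with sums from 36.6 to 260.2 CPM in female In, highest in female In 3, and from 10.9 to 31.3 CPM in male In, where up to 5 of the 8 listed were at 0 in a library. The defining choroid plexus gene Ttr was listed at 0 in every day 30 library. Of 10 astrocyte markers 0 rose and 2 fell, Gfap (-1.26) and S100b (-1.11, log2), with sums from 1715 to 3006 CPM in female In and from 4018 to 4878 CPM in male In. Of 16 microglial markers Cx3cr1 (1.47) and Csf1r (0.64) rose while Tyrobp (-1.39) and Aif1 (-1.18) fell, and the sums overlapped, from 1718 to 2605 CPM in female In and from 2113 to 3053 CPM in male In. Of 11 pan-neuronal markers 1 rose and 1 fell, and 0 of 10 oligodendrocyte and 0 of 6 blood cell markers passed. On library totals 0 markers of any of these lists fell, and 11 endothelial, 7 pericyte, 7 choroid plexus, 9 microglial and 0 astrocyte markers rose. In S, 4 of 12 endothelial, 4 of 10 pericyte and 2 of 16 microglial markers rose and 1 of 10 astrocyte markers fell on the TMM scale, and 0 of 7 choroid plexus markers passed. The part of these lists in the differences of the 10 members in In and of Psmb4 in S was not tested.

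**Figure D4:**
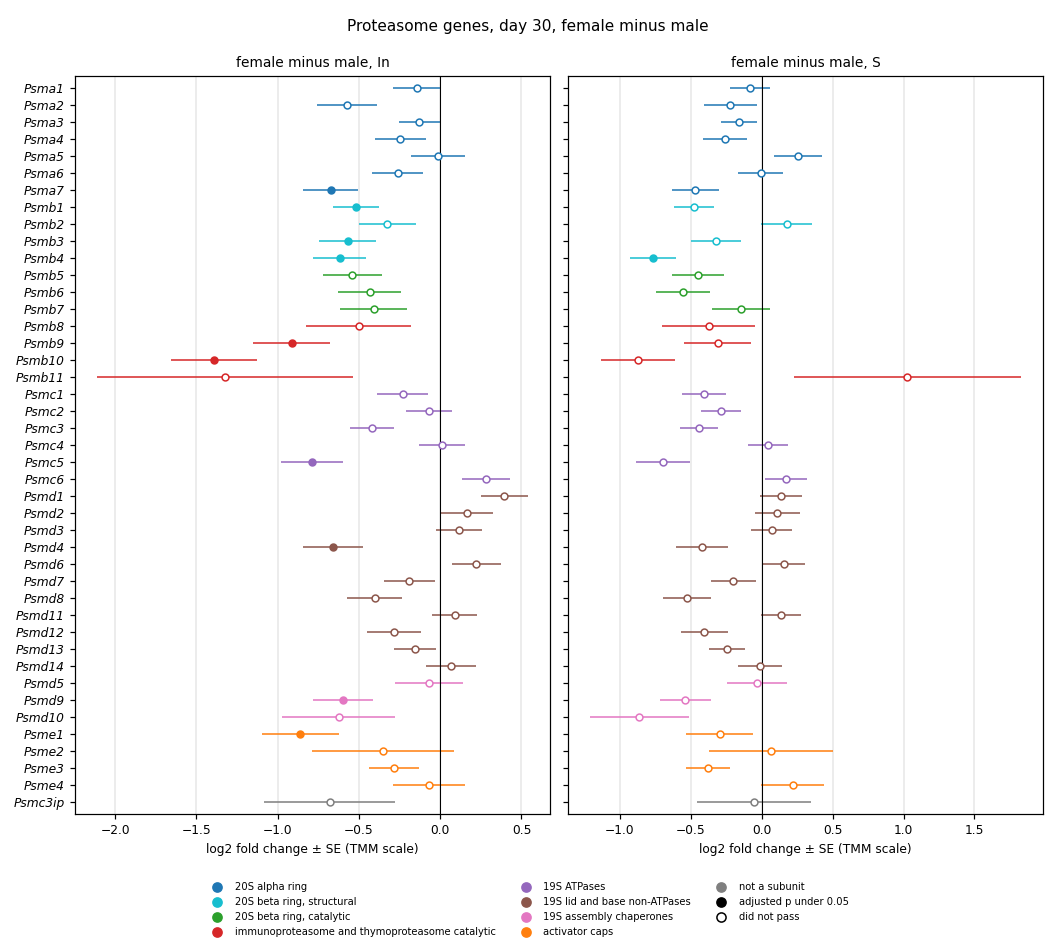
Log2 fold change, female minus male, with its SE on the TMM scale, for the 43 proteasome genes tested at day 30, in In (left) and S (right), coloured by role; filled points passed an adjusted p under 0.05 by edgeR. In In 10 genes passed, Psmb10 lowest among them at -1.39, and in S only Psmb4 at -0.77; on library totals 9 of the 10, and Psmb4 in S, have the opposite sign.

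Between the days, the male difference itself was compared, with 42 members and 11693 genes tested. One member passed by edgeR, Psmd1, with a positive difference, against 5.27% of all genes with a positive and 7.71% with a negative one (13% in all). Its difference was 1.62 ± 0.26 (log2, SE, adjusted p = 0.00100 by edgeR) beside -0.18 ± 0.15 at day 30 and -1.74 ± 0.18 at day 7 in the separate fits. It passed in all 19 alternatives, with values between 1.30 and 1.74. At day 30 Psmd1 had 45.1, 47.2 and 37.00 CPM in male In and 44.03, 57.3 and 44.9 CPM in male S, with overlap. The days differ in the group names, the table and its filter, so a change with time cannot be told apart from these. The counting may differ too. Pomp had 28 to 179 reads per library at day 7 and 0 to 2 at day 30, and Ttr had 91 to 1074 and 0. Whether both tables were counted with the same gene models was not tested. The members' median was 0.27 and that of all genes 0.069. Psmb8 did not pass (-0.20 ± 0.53, SE), so its day 7 and day 30 differences are not shown to differ.

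**Figure D5:**
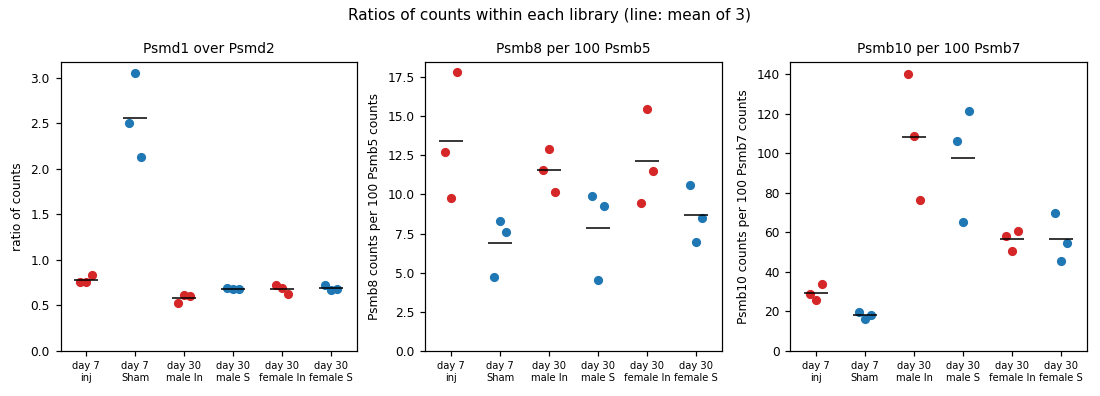
Ratios of read counts within each of the 18 libraries, by group, on linear axes from 0, with red for inj and In, blue for Sham and S, and a line at the mean of 3. The Psmd1 to Psmd2 ratio is between 2.13 and 3.05 in the Sham libraries and between 0.521 and 0.837 in the other 15, the Psmb8 to Psmb5 ratio is higher in each inj than each Sham library, and the Psmb10 to Psmb7 ratio at day 30 is highest in male In 1.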

How the data were processed

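RNA was sequenced as polyA libraries from rat motor cortex, per the labels. The submitters' processing notes name HISAT2, edgeR and the rn6 build; tool versions are not given in the sources used here. The authors deposited raw counts per gene symbol in 1 table per day, not normalized. The day 7 table lists 12560 genes and none encoded by mitochondria; how it was filtered before deposit is unknown. The day 30 table ends with 6 summary lines, which were dropped with 1 line without a gene name that held 0% of the counts.

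The members, gene lists and comparisons were chosen with earlier results of these data known, and the lists give no independent support. All 42 or 44 members may be named; values per library are given for up to 10 members that pass in a comparison, for the 3 with the smallest p where none passes, and for Psmb5 to Psmb10, Psme1 and Psme2. Psmd2, Psmd3 and Psmd13 were set beside Psmd1 after their values were seen. Outside the members, up to 4 passing genes per list are named, with Pomp, Nfe2l1, Irf1 and Ubb in any case. Some genes of these lists are not reported here and are left out of the lists' counts.

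The counts were tested with edgeR 4.0.16 in R 4.3.3 (TMM, filterByExpr, robust quasi-likelihood F test, Benjamini-Hochberg over all genes tested, threshold 0.05). The 6 day 7 libraries, the 12 day 30 libraries and the 12 male libraries were fitted separately, for 7 comparisons; the common biological coefficients of variation were 0.175, 0.259 and 0.226. Intervals are 95% from the SE. A floor of 3 counts is 1.09 to 1.23 CPM in Sham and 0.114 to 0.288 CPM in the other libraries. Alternatives used DESeq2 1.42.0, limma 3.58.1 voom with sample weights, RLE factors, library totals, other filters, each library left out, Sham 1 and Sham 1-RNA summed, a replicate block and a fit to the compared groups. Thinned inj reads, leaving out male In 1 with male S 2, and leaving out mitochondrially encoded genes were chosen after seeing the data. Each pair of libraries in a group differed by more than sampling noise, but not equally. The chi-square per gene was lowest for Sham 1 and Sham 3, at 3.48. It was 35.1 for Sham 1 with Sham 1-RNA and 31.6 for Sham 3 with Sham 1-RNA, at similar depth. Whether Sham 1 and Sham 3 are independent samples is not stated either, and no alternative summed them. The scripts were tested on simulated data, and figures drawn with matplotlib 3.10.9 in Python 3.11.15. Of the members 18 have an annotated pseudogene or like copy and 13 an overlapping gene in RefSeq (GRCr8), and their counts may hold reads of these.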

Additional observations from a re-analysis of the deposited data

Results flagged for a closer look

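The difference between the male effects at day 30 and day 7 was 1.62 on the log2 scale for Psmd1, the largest subunit of the 19S base. It is listed because the effect of the day 30 comparison (In minus S) differed from that of the day 7 comparison (inj minus Sham) by a test of the difference itself (edgeR, adjusted p = 0.0010). All 3 day 7 Sham libraries lay above all 3 inj libraries, while the male In and male S libraries overlapped. The libraries of the days came in separate tables and under other group names. Some genes with reads at day 7, such as Pomp and Ttr, had almost none at day 30. The cause of the Psmd1 difference was not tested.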

How the results depend on the processing

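Alternatives are described by how many proteasome genes passed. At day 7 (7 in the main result) leaving out 1 library each gave 2 to 8, with 3 without Sham 1, 4 without Sham 3, 2 without inj 2 and 4 without inj 3. Psmd1 kept its call in every alternative of both comparisons in which it passed. Between In and S, and for the interaction, the count was 0 in each of 22, 21 and 21 alternatives, the replicate block included. For female minus male in In (10) it was 25 on library totals, 1 with only the groups compared, 2 without male In 1 and male S 2, 4 (2 higher and 2 lower) without mitochondrially encoded genes on the remaining totals, and 1 to 12 leaving out 1 library each. For female minus male in S (1) it was 27 on library totals, 2 with no filter, 7 by DESeq2, 7 by limma-voom, 7 with only the groups compared, 3 without male In 1 and male S 2, 0 without mitochondrially encoded genes on the remaining totals, and 0 to 8 leaving out 1 library each, the 8 without male In 1. For the difference of the male effects (1) DESeq2 gave 2 and limma-voom 4. On library totals the female minus male values in In turned to 0.23 for Psma7, 0.39 for Psmb1, 0.34 for Psmb3, 0.28 for Psmb4, 0.0086 for Psmb9, 0.11 for Psmc5, 0.25 for Psmd4, 0.33 for Psmd9 and 0.045 for Psme1, and in S to 0.10 for Psmb4; the scale itself moved all genes. Correlations of the deviations of same-numbered In and S libraries were 0.080 and 0.0050 in males and 0.049, 0.12 and 0.051 in females. For In and S libraries with different numbers they ran from -0.15 to 0.099. With 3 libraries per group this check cannot decide whether the numbers pair them. With the replicate block 8 members passed for female minus male in In and 0 in S. Day 7 values rest on fewer reads in Sham, where Psmb8 had 15 to 24 and Psmb11 1 to 6 reads per library; detection limits were not compared between members.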
